A study of Homo sapiens with 18 samples.

Results

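Cells of the human lung cancer line PC9 that had survived erlotinib were compared directly with PC9 cells under carboplatin. PC9 is an established lung adenocarcinoma line whose growth depends on mutant EGFR, the epidermal growth factor receptor. The comparison rests on 6 of the 18 RNA-seq libraries, 3 in each group, picked by their labelled treatment. The drug-tolerant persisters (DTP) were the PC9 cells left alive after 8 days in 1 µM erlotinib, an inhibitor of the EGFR kinase, with medium and drug renewed every 3 days. The carboplatin cells were PC9 cells given 50 µM carboplatin, a platinum drug that crosslinks DNA, for 72 hours. As context, 3 libraries of PC9 with the solvent DMSO (parental) and 3 of PC9 given 1 µM erlotinib for 24 hours were in the same fit. All 4 groups were grown with 10% serum, and the labels name no engineered allele. Drug, dose, duration and the survival of only some cells all differ between DTP and carboplatin cells, so their parts in any difference cannot be told apart. The labels do not say whether the replicates a, b and c came from separate cultures, so the p-values measure the spread between these libraries, which may be technical.

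Erlotinib blocks signalling from EGFR through RAS and ERK, the pathway that keeps feedback genes such as DUSP6 and SPRY4 on in EGFR-mutant cells. Carboplatin leaves crosslinks between DNA bases; these stall replication and transcription, are repaired by the Fanconi anaemia and excision repair pathways, and activate p53 where it is functional. Persisters are known as slowly cycling cells that tolerate a targeted drug without a new resistance mutation. LINE-1 elements are transposable sequences that most cells silence by histone H3 lysine 9 methylation, and their nucleic acids can be sensed as if they were viral.

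The 6 libraries held 71800215 to 84650552 reads assigned to genes, and gene levels correlated above 0.99 within each group. Differences between replicates exceeded counting noise in every pair, with a chi-square per gene of 4.49 to 5.89 among the DTP libraries and 14.2 to 31.8 among the carboplatin libraries. ERCC spike-in RNA, added by cell number per the labels, made up 0.552, 0.530 and 0.565 reads per 100 gene reads in DTP a, b and c. In carboplatin a, b and c the share was lower, at 0.417, 0.321 and 0.401, and the groups did not overlap. The mean log2 difference was 0.54 (exact 2-sided permutation test, p = 0.10, the smallest that 3 against 3 libraries can give). Scaling to the spike-in instead of to the bulk of genes shifts the log2 differences by -0.56 at the median gene, and a gene between 0 and 0.56 higher in DTP turns lower. Whether cells or RNA per cell set this share was not tested. Markers of the cell type were mainly those of epithelium. All 18 epithelial markers were above 1 CPM (reads scaled to a common total of gene reads) in every DTP library. In carboplatin CLDN3 ranged from 0.680 to 1.67 CPM, and the others were above 1 CPM in every library. Their summed levels were 6548 to 6672 CPM in DTP and 5277 to 5673 in carboplatin. Of 18 lung lineage markers, 12 in DTP and 13 in carboplatin were under 1 CPM, and the list summed to 198 to 204 CPM in DTP and 176 to 181 in carboplatin. NKX2-1 reached at most 0.839 CPM and SFTPB had 0 reads in DTP, whereas SOX9, GATA6, LAMP3 and FOXA1 were all above 18 CPM in every library of both groups. Of the fibroblast, endothelial and immune markers, 8 of 10, 6 of 8 and 9 of 12 stayed under 1 CPM in each group. PTPRC and CD3E were among them, and ERG and MS4A1 had 0 reads in all 6 libraries. The others, COL1A1, FBLN1, PECAM1, CDH5, CD68, ITGAM and CSF1R, were above 1 CPM in every library of both groups. CDH5 was at 30.1 to 30.8 CPM in DTP and 34.4 to 36.6 in carboplatin. CD68 was at 24.8 to 25.6 CPM in DTP and 65.4 to 67.9 in carboplatin. ITGAM was at least 14.7 CPM in DTP and at most 3.15 in carboplatin. The source of these transcripts was not tested.

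Of 17076 genes tested, 6779 (39.7%) were higher in DTP and 6778 (39.7%) were lower (edgeR quasi-likelihood test, adjusted p under 0.05). With a difference of at least 2-fold added, a rule chosen after seeing the data, 2823 genes (16.5%) were higher and 2024 (11.9%) lower. In 79.4% of the tested genes the 3 DTP libraries did not overlap the 3 carboplatin libraries. Under spike-in scaling the split became 3134 (18.4%) higher and 10517 (61.6%) lower. Log2 differences below are DTP minus carboplatin, each with its standard error, and a negative value means a lower level in DTP. Counts over the gene lists below are to be read beside the 39.7% called each way over all genes.

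The 12 genes furthest above carboplatin in DTP, among genes of at least 10 CPM, were XAF1, OAS2, IGFBP5, MX2, BST2, IFI27, ANK2, EDIL3, IFI44L, TENM2, TRIM22 and SEMA5A. XAF1, OAS2, MX2, BST2, IFI27, IFI44L and TRIM22 are interferon-stimulated genes. ANK2, EDIL3, TENM2 and SEMA5A each span more than 300 kb of the genome. At the other end stood IL37, IL1RL1, SPRR1B, NTSR1, IL1B, S100A9, IL6R, IL11, SLC6A14, GEM, CCAT1 and PI3. IL37, IL1B and IL11 are cytokines, and IL1RL1 and IL6R are cytokine receptors. SPRR1B, S100A9 and PI3 are products of stressed or cornifying squamous epithelium.

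**Figure D1:**
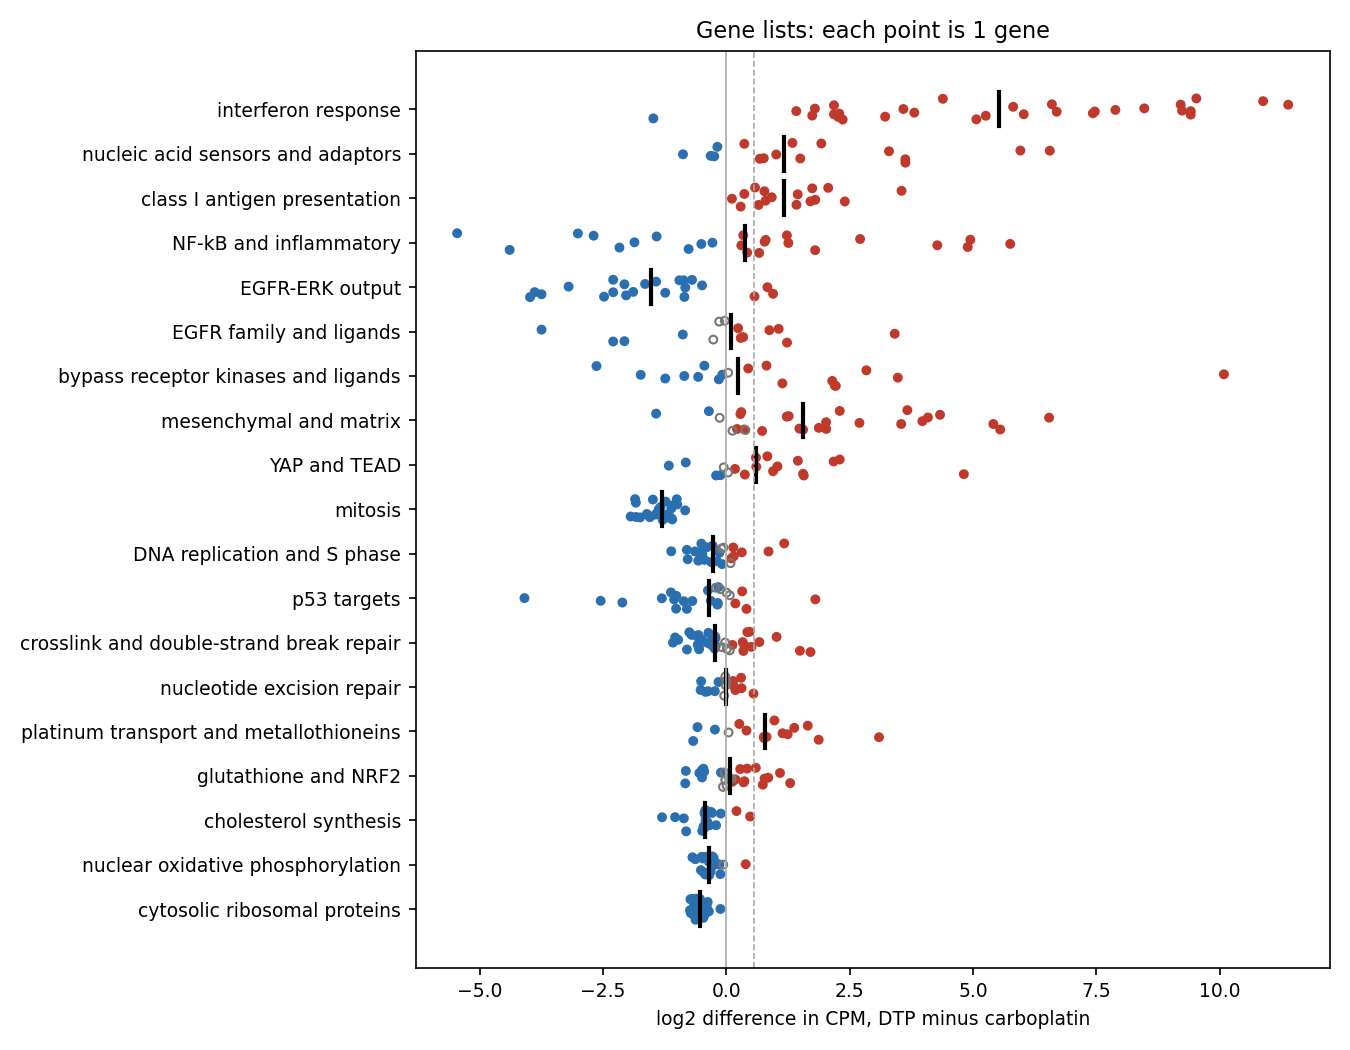
Log2 difference in CPM between DTP and carboplatin cells (horizontal axis) for the tested members of 19 gene lists (rows). Each point is 1 gene, filled where the adjusted p was under 0.05 (red higher in DTP, blue lower), open otherwise; the bar is the list's median, and the dashed line marks where a difference would turn under spike-in scaling. Interferon genes reach 11.39, and the mitosis genes all lie below -0.8.

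Interferon-stimulated genes had the largest median difference of the 36 gene lists examined. All 30 members were tested; 29 were higher in DTP, each by at least 2-fold, and 1 was lower. The median difference was 5.54, against -0.01 over all genes tested, and the summed level was 2147 to 2171 CPM in DTP against 183 to 192 CPM in carboplatin. Set against the parental cells, which both comparisons share, the list's median was 6.29 for DTP and 1.35 for carboplatin. Their median genomic span was 20.3 kb.

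BST2, which tethers budding virus to the cell surface, stood at 97.6, 95.7 and 97.4 CPM in DTP a, b and c. In carboplatin a, b and c it was at 0.155, 0.105 and 0.16 CPM, and the parental mean was 0.0527. The difference was 9.42 ± 0.09 (adjusted p = 7.4e-20). OAS2, an enzyme that makes the 2-5A messenger upon binding double-stranded RNA, was at 197, 193 and 197 CPM in DTP and at 0.0952, 0.105 and 0.107 CPM in carboplatin. Its parental level was 0.0132 CPM, so carboplatin cells too were above the parental mean. XAF1, a pro-apoptotic partner of XIAP, was at 50.1, 47.4 and 51.9 CPM in DTP, while only 4 reads in all were assigned to it in the 3 carboplatin libraries. MX2, a GTPase that restricts viruses at the nuclear pore, was at 78.8, 74.9 and 76 CPM in DTP and at 0.0119, 0.0526 and 0.253 CPM in carboplatin. IFI27 (9.21 ± 0.19), IFI44L (8.47 ± 0.10) and TRIM22 (7.89 ± 0.19) were all under 0.2 CPM in each carboplatin library. With counts this low 1 library moves a fitted value: IFI27 was at 10.11 without carboplatin library a, MX2 at 11.19 without library c in place of 9.53, and XAF1 at 12.57 without library a in place of 11.39. OAS3, OAS1 and IFI6 had a measurable level under carboplatin. OAS3 was at 274, 282 and 269 CPM in DTP and at 8.19, 8.14 and 8.24 in carboplatin, a difference of 5.07 ± 0.04. The member that went the other way was ISG20, an exonuclease, named here after its values were seen. ISG20 was at 2.78, 3.08 and 3.11 CPM in DTP and at 8.31, 7.44 and 9.23 in carboplatin (-1.48 ± 0.11, adjusted p = 4.5e-09).

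The promoters of these genes are shown because most carry the letters of the interferon-stimulated response element (ISRE), the site bound by the interferon-activated factor ISGF3. Windows of 250 bases before to 50 after the start, from RefSeq (GRCh38.p14), were at hand for 22 of the 30 members, and 15 of those (68.2%) held GAAA, any 2 bases and GAAA again on either strand. The same letters occurred in 3.92% of the 12802 tested genes with a window. Of the 5 stretches of 120 bases below, written 5′ to 3′ on the gene's strand with the ISRE letters (in either orientation) in capitals, 4 belong to genes that were higher in DTP, and the last to ISG20, which was lower. Overlapping matches run together in BST2.
BST2, chr19:17405690-17405809, minus strand: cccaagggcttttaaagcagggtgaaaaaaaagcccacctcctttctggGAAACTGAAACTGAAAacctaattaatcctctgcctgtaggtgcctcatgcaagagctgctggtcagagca
IFI27, chr14:94110586-94110705, plus strand: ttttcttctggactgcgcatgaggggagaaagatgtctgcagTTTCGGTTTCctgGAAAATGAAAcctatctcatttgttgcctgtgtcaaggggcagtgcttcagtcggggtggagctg
IFI44L, chr1:78620320-78620439, plus strand: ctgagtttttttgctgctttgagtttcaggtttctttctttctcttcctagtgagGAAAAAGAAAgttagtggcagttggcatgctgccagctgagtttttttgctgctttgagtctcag
IFI6, chr1:27672221-27672340, minus strand: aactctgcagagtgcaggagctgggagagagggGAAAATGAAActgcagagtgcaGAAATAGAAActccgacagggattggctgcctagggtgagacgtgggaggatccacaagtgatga
ISG20, chr15:88638892-88639011, plus strand: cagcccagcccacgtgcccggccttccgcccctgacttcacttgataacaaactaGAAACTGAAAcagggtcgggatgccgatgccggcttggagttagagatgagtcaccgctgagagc
A match in these windows is a description of the letters, not of binding, and it was present in genes of both directions.

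Sensors of foreign nucleic acid were mostly higher in DTP: of 16 tested, 12 were higher and 4 lower, with a median of 1.18. TLR3, the endosomal receptor for double-stranded RNA, was at 9.11, 9.71 and 9.25 CPM in DTP and at 0.0833, 0.171 and 0.04 in carboplatin, a difference of 6.56 ± 0.18 (7.18 without carboplatin library b). Parental cells had 0.56 CPM of TLR3, so it lay above the parental level in DTP and below it in carboplatin. IFIH1 (3.63 ± 0.06) and RIGI (3.30 ± 0.05), the cytosolic RNA helicases MDA5 and RIG-I, were also higher. RIGI stood at 172, 164 and 169 CPM in DTP against 16.8, 17.7 and 16.8 in carboplatin. SAMHD1, which depletes nucleotides and restricts reverse transcription, was higher by 1.93 ± 0.04.

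Class I antigen presentation, the route by which cells display peptides to T cells, was higher throughout: all 16 members passed the test in that direction, 8 of them by at least 2-fold, with a median of 1.17. Under spike-in scaling 10 of the 16 were higher and 2 lower. The immunoproteasome subunit PSMB9 differed most among the named members, at 27.5, 27.4 and 28.5 CPM against 2.4, 2.29 and 2.41 (3.55 ± 0.06). TAP1, which carries peptides into the endoplasmic reticulum, was 1.80 ± 0.04 higher, and ERAP1, which trims them, 1.74 ± 0.04 higher.

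Inflammatory genes, many of them NF-kB targets, went in both directions. Of 24 tested, 14 were higher in DTP and 10 lower, and 8 were at least 2-fold higher and 7 at least 2-fold lower. IL1B was at 2.5, 2.05 and 2.12 CPM in DTP and at 98, 100 and 95 in carboplatin (-5.45 ± 0.08), with a parental mean of 41.2. IL1A, the other interleukin-1, was at 8.45, 8.06 and 8 CPM against 51.7, 55.1 and 51.4 (-2.69 ± 0.05). Both cytokines were thus on opposite sides of the parental level in the treatments. The neutrophil chemokines CXCL1 (-2.16 ± 0.10) and CXCL8 (-1.41 ± 0.06) and the chemokine CCL20 (-4.39 ± 0.20), named after their values were seen, were lower in DTP as well. CXCL10, an interferon-induced chemokine also named afterwards, was at 4.55, 4.97 and 3.97 CPM in DTP and at 0.238, 0.092 and 0.0933 in carboplatin. IL32, an inflammatory cytokine, was at 235, 240 and 236 CPM against 36.2, 35.7 and 36.6 (2.71 ± 0.04), and TRAF1, a signalling adaptor, was 1.80 ± 0.04 higher.

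Among the genes outside the list, IL1RL1, the receptor for interleukin-33, stood at 3.46, 3.46 and 3.65 CPM in DTP and at 312, 333 and 306 in carboplatin. IL11 was at 8.07, 9.08 and 8.08 CPM against 234, 219 and 239, while the parental mean was 19.4. S100A9, a subunit of calprotectin, was at 10.9, 11.6 and 10.4 CPM against 459, 443 and 488. PI3, the elastase inhibitor elafin, was at 28.7, 26.4 and 27.1 CPM against 538, 528 and 526, and its parental mean was 131. Each of S100A9 and PI3 was therefore below the parental mean in DTP and above it in carboplatin.

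Promoters were at hand for 22 of the 24 inflammatory genes. The NF-kB consensus occurred in 14 (63.6%), against 16.9% of tested genes, and the AP-1 letters TGANTCA, the site of FOS and JUN dimers, in 3 (13.6%), against 7.75%. CXCL1 and IL32 are shown because both hold the NF-kB letters (capitals) and moved in opposite directions. CXCL8 is shown for its AP-1 letters (capitals).
CXCL1, chr4:73869260-73869379, plus strand: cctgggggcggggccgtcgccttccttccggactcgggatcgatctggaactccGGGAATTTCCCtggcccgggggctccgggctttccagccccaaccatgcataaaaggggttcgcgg
IL32, chr16:3065250-3065369, plus strand: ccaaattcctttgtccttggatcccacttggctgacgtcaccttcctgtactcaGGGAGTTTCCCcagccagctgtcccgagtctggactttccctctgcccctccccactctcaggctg
CXCL8, chr4:73740375-73740494, plus strand: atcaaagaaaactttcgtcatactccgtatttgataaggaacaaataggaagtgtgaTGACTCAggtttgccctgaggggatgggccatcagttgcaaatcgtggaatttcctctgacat

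Output of the EGFR-ERK pathway was lower in DTP. Of 22 tested genes, 19 were lower, 13 of them by at least 2-fold, and 3 were higher, none by 2-fold; the median was -1.53. DUSP6, the phosphatase that switches ERK off, was at 3.81, 3.41 and 3.4 CPM in DTP and at 55.2, 55.8 and 56.6 in carboplatin (-3.98 ± 0.06). SPRY4, a feedback inhibitor of receptor kinases, was at 5.14, 5.49 and 5.59 CPM against 80.2, 78.7 and 80.3. The parental mean of SPRY4, 81.5 CPM, lay just above the carboplatin libraries. MAFF, a small MAF transcription factor (-3.20 ± 0.04), and PHLDA1, an early response gene (-2.03 ± 0.03), were lower too. After 24 hours of erlotinib DUSP6 had been lower still, at 0.578 CPM. The list's median against the parental cells was -1.34 in DTP and 0.09 in carboplatin.

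**Figure D2:**
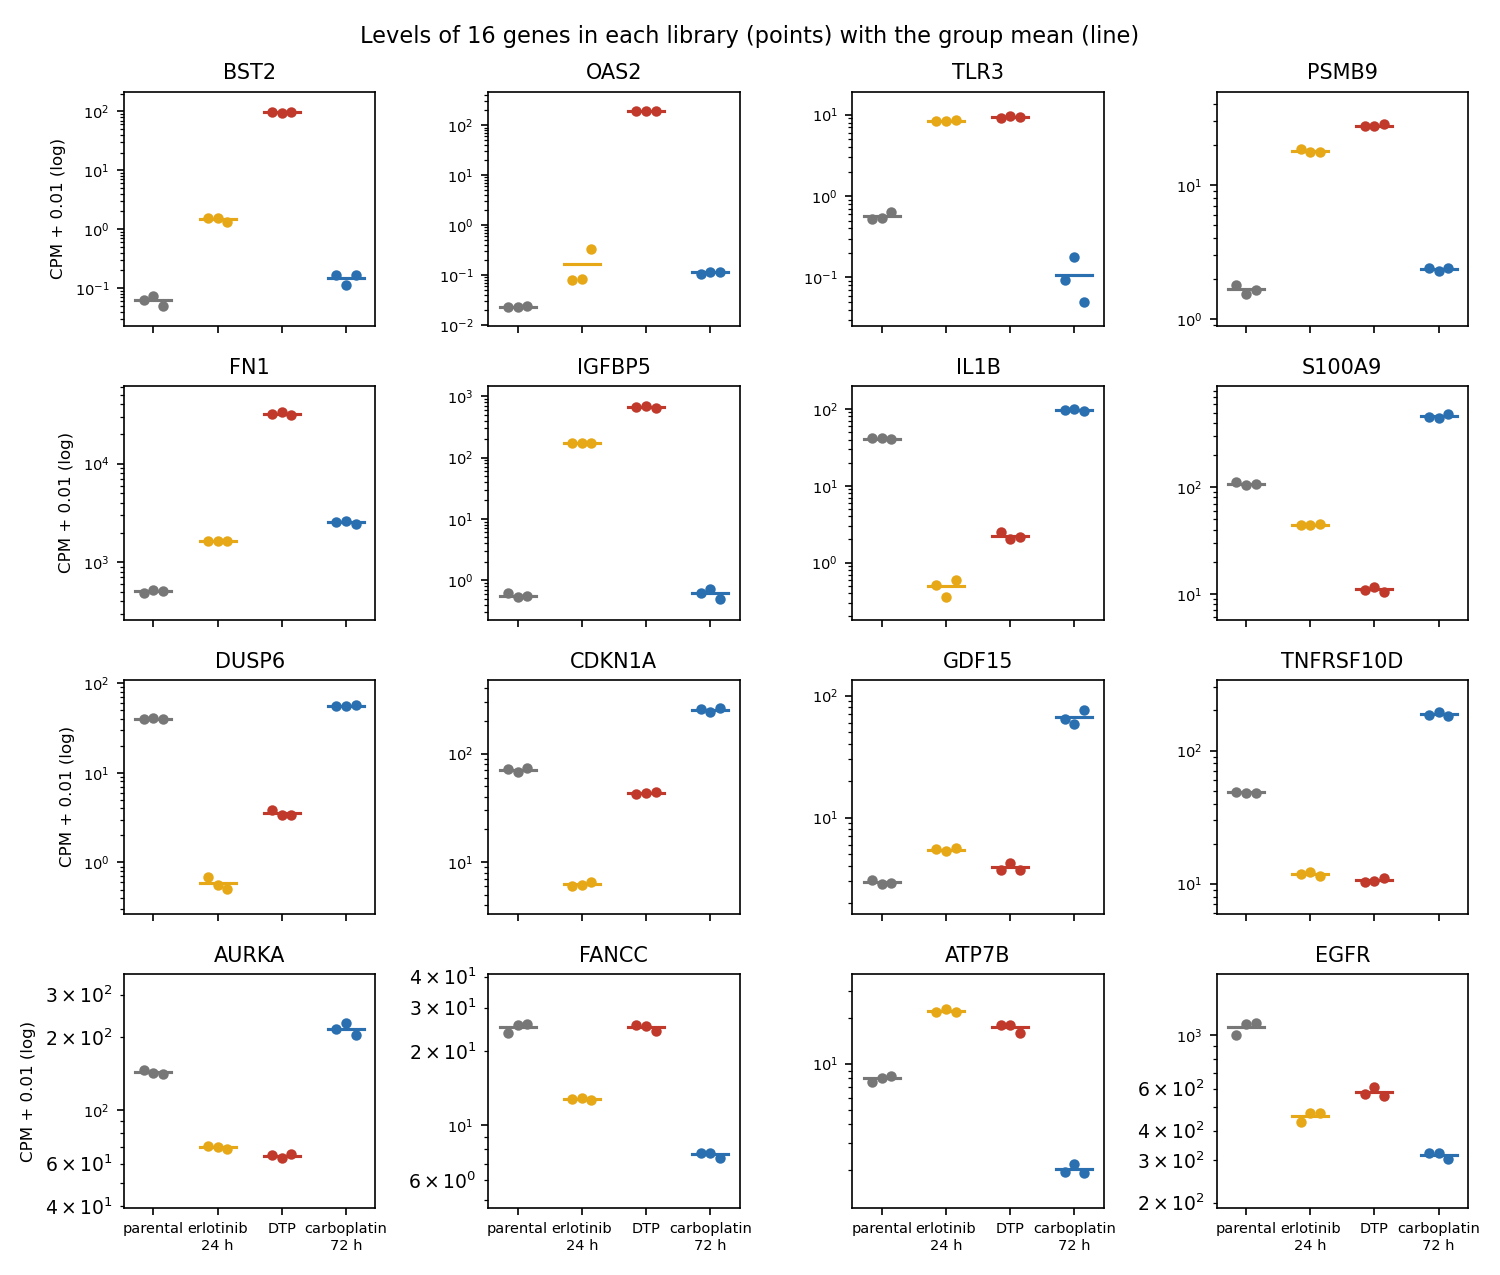
Level of 16 genes (CPM + 0.01, log axis) in each of the 12 libraries, grouped as parental, erlotinib for 24 h, DTP and carboplatin for 72 h. Points are libraries and lines are group means. The 3 DTP points and the 3 carboplatin points do not overlap in any panel, as in 79.4% of all tested genes. The panels show named genes, some of them picked by a rule that required no overlap.

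The EGFR ligands and receptors went in different directions. Of 14 genes of the EGFR family tested, 7 were higher in DTP and 4 lower. Of the ligands, AREG was at 1.66, 1.95 and 1.86 CPM in DTP and at 24.4, 24.9 and 24 in carboplatin (-3.74 ± 0.09). HBEGF (-2.29 ± 0.05) and EREG (-2.06 ± 0.07) were lower too. EGFR itself was at 572, 608 and 557 CPM in DTP and at 322, 321 and 305 in carboplatin (0.87 ± 0.05), both below the parental libraries. ERBB2, its partner receptor, was higher in DTP by 1.06 ± 0.04, at 73.7, 76.5 and 71.9 CPM against 36.2, 33.6 and 36.6. Both receptors kept this direction under spike-in scaling, at 0.31 and 0.50.

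Receptor kinases and ligands that can bypass EGFR were tested for 18 of 25 members; 9 were higher in DTP, 7 by at least 2-fold, and 8 lower. The insulin-like growth factor genes led. IGFBP5, a binding protein of these growth factors, was at 657, 679 and 654 CPM in DTP and at 0.619, 0.723 and 0.48 in carboplatin (10.09 ± 0.07). The carboplatin libraries of IGFBP5 lay around the parental mean of 0.551, whereas 24 hours of erlotinib had already brought it to 173 CPM. IGFBP3 was at 995, 982 and 994 CPM in DTP and at 90.6, 89.4 and 86.7 in carboplatin. IGF1R, the receptor, was higher by 2.20 ± 0.04 and spans 316 kb. GAS6, a ligand of the TAM receptors AXL and MERTK, was at 107, 111 and 110 CPM in DTP and at 14.6, 13.4 and 17.7 in carboplatin. MERTK, named after its values were seen, ran the other way, at 4.63, 3.59 and 3.66 CPM against 24.4, 25.1 and 24.3. FOXO and PI3K target genes were even, with 8 higher and 8 lower of 16. In that list INPP4B (1.67 ± 0.04), GADD45A (1.05 ± 0.03) and PIK3IP1 (1.27 ± 0.05) were higher and BCL6 (-1.13 ± 0.03) lower.

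Targets of p53 were more often lower in DTP: 16 of 24 tested were lower, 8 by at least 2-fold, and 4 higher, with a median of -0.34. CDKN1A, which encodes the cell cycle inhibitor p21, was at 42.5, 43.7 and 44 CPM in DTP and at 256, 241 and 262 in carboplatin (-2.55 ± 0.04), with a parental mean of 70.7. GDF15, a stress cytokine, was at 3.72, 4.25 and 3.69 CPM against 64.6, 58.3 and 75.9 (-4.09 ± 0.09). Its DTP level was close to the parental mean of 2.93, and its carboplatin level was far above. PLK3, a stress kinase, was also lower (-2.11 ± 0.05). MDM2, which degrades p53 and is its target, differed by only -0.31 ± 0.04, at 34.9, 34.1 and 33 CPM against 40.6, 45 and 41.2. The parental mean of MDM2 was 44.8 CPM, near the highest carboplatin library and above all DTP libraries. TP53I3, an oxidoreductase gene, was the one member higher by 2-fold or more, at 75.9, 74.5 and 74 CPM against 20.1, 22.2 and 21.9 (1.81 ± 0.04).

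Repair of crosslinks and double-strand breaks showed mostly small differences. Of 35 tested genes, 20 were lower in DTP and 11 higher, but only 2 were lower and 3 higher by at least 2-fold, and the median was -0.23. FANCC, a subunit of the Fanconi anaemia core complex, was at 25.4, 25.3 and 24 CPM in DTP and at 7.74, 7.75 and 7.4 in carboplatin (1.71 ± 0.05). The parental mean of FANCC was 24.9, so its difference lay on the carboplatin side, and the gene spans 328 kb. FANCF, of the same complex and only 2.95 kb long, was at 14.1, 13.6 and 14.3 CPM against 5.21, 4.94 and 4.76. REV3L, the catalytic subunit of the translesion polymerase zeta, was higher by 1.02 ± 0.05, and it spans 185 kb. XRCC2, a gene of homologous recombination, was lower (-1.04 ± 0.05). Nucleotide excision repair was even, with 6 of 16 genes higher, 6 lower and none changed by 2-fold. In that pathway ERCC1, the nuclease partner often examined with platinum drugs, was at 60.9, 64.6 and 63.2 CPM in DTP and at 94, 88.9 and 96.2 in carboplatin (-0.56 ± 0.04), and the parental mean was 63.4. ERCC3 (-0.52 ± 0.03), GTF2H3 (-0.51 ± 0.04) and DDB1 (-0.23 ± 0.03) were also lower. ERCC6, of the transcription-coupled branch, was 0.55 ± 0.04 higher, a value that became -0.02 under spike-in scaling.

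Genes of platinum transport and the metallothioneins, which bind metals, were more often higher in DTP: 12 of 16 tested were higher, 6 by at least 2-fold, 3 were lower, and the median was 0.79. Under spike-in scaling 8 were higher and 4 lower. ATP7B, a copper pump that can export platinum, was at 18, 17.9 and 15.9 CPM in DTP and at 1.94, 2.19 and 1.92 in carboplatin (3.10 ± 0.07). The parental mean of 8 CPM lay between them. ABCC4 was higher by 1.65 ± 0.06, ABCC1 by 0.82 ± 0.03 and ABCC3 by 0.76 ± 0.03; all are export pumps of the multidrug resistance protein family. These members span a median of 50.2 kb. ABCC3 lost its call under spike-in scaling, at 0.20. MT2A, the main metallothionein, named after its values were seen and 1.3 kb long, was at 94.4, 99.3 and 96.6 CPM against 44.9, 35.9 and 51.

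Glutathione and NRF2 genes split into 12 higher and 8 lower of 26, against 39.7% each way over all genes. TXNRD1, thioredoxin reductase, was at 2171, 2122 and 2135 CPM in DTP and at 875, 908 and 837 in carboplatin (1.30 ± 0.03), with both below the parental level. TALDO1, of the pentose phosphate pathway, was higher by 1.09 ± 0.03. AKR1C1 (-0.82 ± 0.03) and GPX3 (-0.83 ± 0.04) were lower. Neither of the latter reached 2-fold, and no member of the list was lower by that much.

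Every one of the 25 mitosis genes was lower in DTP, 23 of them by at least 2-fold, with a median of -1.31 and a summed level of 1604 to 1645 CPM against 4083 to 4408. AURKA, the spindle kinase, was at 65.2, 63 and 65.5 CPM in DTP and at 217, 228 and 205 in carboplatin (-1.75 ± 0.04), and the parental mean of 143 lay between. KIF20A (-1.85 ± 0.03), BIRC5 (-1.43 ± 0.03) and UBE2C (-1.33 ± 0.03) were likewise lower, as was the proliferation marker MKI67, at 152, 159 and 150 CPM against 374, 390 and 350. Against the parental cells the list's median was -1.14 in DTP and 0.27 in carboplatin. In bulk RNA, fewer cells in mitosis and less of these transcripts per cell cannot be told apart.

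DNA replication genes differed less: 16 of 25 were lower and 6 higher, with a median of -0.28, and against the parental cells both groups were lower, by -0.86 in DTP and -0.59 in carboplatin. RRM2, the ribonucleotide reductase subunit, was at 206, 202 and 204 CPM against 441, 456 and 429 (-1.12 ± 0.03). RFC3 (-0.78 ± 0.04) and CDC6 (-0.63 ± 0.04) were lower, while POLA1, the primase-bound polymerase, was higher by 1.17 ± 0.04 and spans 303 kb. Among cell cycle regulators, CCNE1, the cyclin of S phase entry, was lower (-1.41 ± 0.03), CCND1, the cyclin of G1, was higher (0.95 ± 0.03), and CDKN2B, the inhibitor p15, was higher. CDKN2B was at 124, 128 and 128 CPM in DTP and at 58.4, 58.1 and 58.5 in carboplatin, both above the parental mean of 7.85. Thus the cyclin-dependent kinase inhibitors CDKN1A and CDKN2B differed in opposite directions.

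Receptors of the death ligand TRAIL were lower in DTP. TNFRSF10D, a decoy receptor that lacks a working death domain, was at 10.3, 10.4 and 11.1 CPM in DTP and at 185, 195 and 182 in carboplatin (-4.14 ± 0.04). The signalling receptors TNFRSF10A (-1.54 ± 0.06) and TNFRSF10B (-1.06 ± 0.03) were lower too. TNFSF10, the ligand itself, was at 3.94, 4.68 and 4.25 CPM in DTP and at 0.0238, 0.118 and 0.187 in carboplatin (5.31 ± 0.21, or 5.93 without carboplatin library c). In the 24-hour erlotinib libraries the ligand's mean was 83.7 CPM. Over the list, 6 of 11 tested genes were lower and 3 higher.

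The BCL2 family, which sets the threshold of mitochondrial apoptosis, was even: 7 of 16 were higher and 6 lower, against 39.7% each way over all genes. PMAIP1, the p53-responsive killer protein NOXA, was at 36, 33.8 and 36.3 CPM against 88.5, 94.7 and 87.4 (-1.35 ± 0.04). BCL2, the founding survival protein, was at 5.43, 5.12 and 5.36 CPM against 1.77, 1.97 and 1.61 (1.57 ± 0.08), and the parental mean was 10. MCL1 was lower (-0.56 ± 0.03). BAK1 was higher by 0.72 ± 0.04 and lost its call under spike-in scaling, at 0.16.

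Matrix and contractile genes of the mesenchymal program were higher in DTP. Of 27 tested, 22 were higher, 17 by at least 2-fold, and 2 lower, with a median of 1.56; under spike-in scaling 17 were higher and 7 lower. FN1, the matrix protein fibronectin, was at 32236, 33147 and 31542 CPM in DTP and at 2542, 2617 and 2457 in carboplatin (3.67 ± 0.03). Both groups lay above its parental mean of 504 CPM. THBS1, thrombospondin, was at 1981, 1992 and 1959 CPM against 169, 172 and 166. TAGLN, an actin-binding protein of smooth muscle, was at 72.3, 72 and 73 CPM against 1.64, 1.59 and 1.87 (5.41 ± 0.06). The 10 fibroblast markers summed to 316 to 336 CPM in DTP and 124 to 154 in carboplatin, and their part in these differences was not tested. FBLN1 carried most of that sum, COL1A1 overlapped between the groups, at 23, 26.8 and 26.3 CPM against 22.4, 18 and 25, and the other 8 markers, DCN and LUM among them, stayed at or under 0.323 CPM.

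Targets of YAP and TEAD, which overlap with the matrix list, were higher for 13 of 19 members and lower for 4 (median 0.61). Under spike-in scaling 9 were higher and 7 lower, with a median of 0.05. TGFB2, a TGF-beta ligand, was at 387, 383 and 391 CPM in DTP and at 14, 14.1 and 13.1 in carboplatin (4.82 ± 0.04), and the parental mean was 56.7. ANKRD1 (2.18 ± 0.04), CCN1 (1.56 ± 0.03) and CRIM1 (1.45 ± 0.03) followed. The list's members are long, with a median span of 81.3 kb. Epithelial genes went both ways: 8 of 18 were higher and 6 lower (median 0.10), against 39.7% each way over all genes. Under spike-in scaling 4 were higher and 11 lower (median -0.46). EPCAM was lower in DTP, at 367 to 375 CPM against 487 to 538, as was KRT18, at 678 to 690 against 830 to 847. CDH1, which encodes E-cadherin, was at 491, 490 and 483 CPM against 228, 235 and 219 (1.10 ± 0.03), GRHL2, an epithelial transcription factor, was higher by 1.21 ± 0.03, KRT7 by 0.97 ± 0.04, and MUC1 by 2.28 ± 0.06. Lung lineage genes went both ways too: of 14 tested, 5 were higher, 4 lower and 5 not called (median -0.14). LAMP3 (1.45 ± 0.04), TP63 (2.85 ± 0.14) and GATA6 (0.87 ± 0.04) were higher. SOX2 was lower (-3.95 ± 0.23) and under 1 CPM in all 6 libraries. SOX9 was at 69.2 to 72.9 CPM in DTP against 104 to 107 in carboplatin, and FOXA2 at 0.025 to 0.028 against 0.485 to 0.557.

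Metabolic genes were mostly lower in DTP by less than 2-fold. Of the nuclear genes of oxidative phosphorylation 22 of 24 were lower (median -0.35), and of the mitochondrially encoded genes 11 of 13 (median -0.41); neither list had a member that reached 2-fold. SDHB, of complex II, was at 59.6, 56.4 and 58.3 CPM against 94.1, 93.7 and 92.7. Mitochondrial transcripts took 4.02% to 4.15% of gene reads in DTP and 5.94% to 6.26% in carboplatin. Cytosolic ribosomal protein genes were lower for all 36 members, with a median of -0.52 and a range from -0.74 to -0.12. Cholesterol synthesis was lower for 18 of 20 (median -0.42), and IDI1, an isomerase of the pathway, differed most (-1.30 ± 0.04). Against the parental cells that list was higher in both treatments, by a median of 0.34 in DTP and 0.64 in carboplatin.

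Of 26 glycolysis and hypoxia genes, 19 were lower and 6 higher. NDRG1, a hypoxia and stress gene, was at 34.1, 35.1 and 34.5 CPM in DTP and at 230, 229 and 235 in carboplatin (-2.74 ± 0.03). HK2, the inducible hexokinase, was lower (-1.64 ± 0.03), and VEGFA, the angiogenic factor, was lower (-1.16 ± 0.03). EGLN3, an oxygen-sensing hydroxylase, went the other way, at 193, 192 and 194 CPM against 13.5, 13.6 and 14 (3.82 ± 0.04), and spans 539 kb in the annotation. CA9, a hypoxia-induced carbonic anhydrase named after its values were seen, had 0 reads in DTP and 167 in carboplatin. Counting 3 reads over the DTP group as its floor, CA9 was at least 58.6-fold higher in carboplatin.

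Stress and lysosome genes were mixed. In the ATF4 and endoplasmic reticulum stress list 10 of 19 were lower, 5 by at least 2-fold, and 6 higher. PPP1R15A, which restarts translation after stress, was at 71.7, 75.8 and 75.2 CPM against 226, 221 and 229 (-1.60 ± 0.03), and ATF3, at 32.2, 31.1 and 31.6 against 76.4, 78.2 and 73.1, was above the parental mean of 3.83 in both groups. VLDLR, a lipoprotein receptor, was higher by 2.18 ± 0.04. Lysosome and autophagy genes were higher for 11 of 20 and lower for 6, against 39.7% each way over all genes. CTSA, cathepsin A, was higher by 1.58 ± 0.03, whereas MAP1LC3B, the autophagosome protein LC3, was lower (-1.08 ± 0.03).

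Aldehyde dehydrogenases, whose activity is used to sort tolerant tumour cells, were higher in DTP for 12 of 19 members and lower for 5. Over all genes tested 39.7% were called each way. Under spike-in scaling 8 members were higher and 8 lower, with a median of -0.10. ALDH1A3, which makes retinoic acid, was at 1723, 1698 and 1725 CPM in DTP and at 558, 573 and 546 in carboplatin (1.62 ± 0.02). The parental mean of ALDH1A3, 1922 CPM, was above both. ALDH1B1 (1.53 ± 0.03) and ALDH4A1 (1.62 ± 0.05) were higher. ALDH1A1 was under 0.2 CPM in every library of both groups, at 0.0232, 0.012 and 0.0128 CPM against 0.131, 0.0526 and 0.04. Its difference of -2.14 ± 0.84 (adjusted p = 0.030) was no longer called without carboplatin library a (-1.43, adjusted p = 0.19), DTP library b (-1.97) or DTP library c (-2.01).

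Genomic span divided the comparison. Span, the distance from a gene's start to its end in GENCODE release 29, was matched for 15703 of the tested genes (92.0%). The median difference was -0.26 for 3461 genes under 10 kb, -0.15 for genes of 10 to 30 kb, 0.02 for 30 to 100 kb, 0.52 for 100 to 300 kb and 1.85 for 570 genes over 300 kb. Of the genes over 300 kb, 82.8% were higher in DTP and 8.60% lower, against 27.1% and 49.1% of those under 10 kb. At least 2-fold higher were 69.6% of the longest genes and 9.85% of the shortest. The order of the bins was the same under spike-in scaling, where the medians ran from -0.82 to 1.29.

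With the parental cells as the reference of both comparisons, the median for genes over 300 kb was -1.39 in carboplatin and 0.41 in DTP, and for genes under 10 kb it was 0.34 and 0.06. Library by library, the longest genes stood at -1.19, -1.14 and -1.22 in carboplatin a, b and c and at 0.35, 0.34 and 0.35 in DTP, so the groups did not overlap. Among genes of at least 10 CPM the median over 300 kb was 1.71. Single long genes differed in which treatment lay away from the parental level. The 4 described here were picked for being furthest above carboplatin in DTP, so their direction was fixed by that choice. ANK2, a membrane skeleton adaptor of 566 kb, was at 19.2, 18.7 and 17.2 CPM in DTP, at 0.0238, 0.0394 and 0.0267 in carboplatin and at a mean of 0.361 in parental cells. SEMA5A, a guidance receptor of 511 kb, was at 129, 130 and 125 CPM against 0.429, 0.67 and 0.547, with a parental mean of 11.8. For EDIL3, a matrix protein of 444 kb, and TENM2, an adhesion protein of 979 kb, the carboplatin libraries stayed under 0.1 CPM. EDIL3 had a parental mean of 0.869 CPM, above carboplatin and below DTP. That of TENM2 was 0.0622 CPM against 0.0675 in carboplatin, with a carboplatin minus parental log2 difference of 0.14 (edgeR, adjusted p = 0.81), while DTP minus parental was 8.13. For ANK2 these log2 differences were -3.53 in carboplatin and 5.66 in DTP. The part of span in the list results was not tested.

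**Figure D3:**
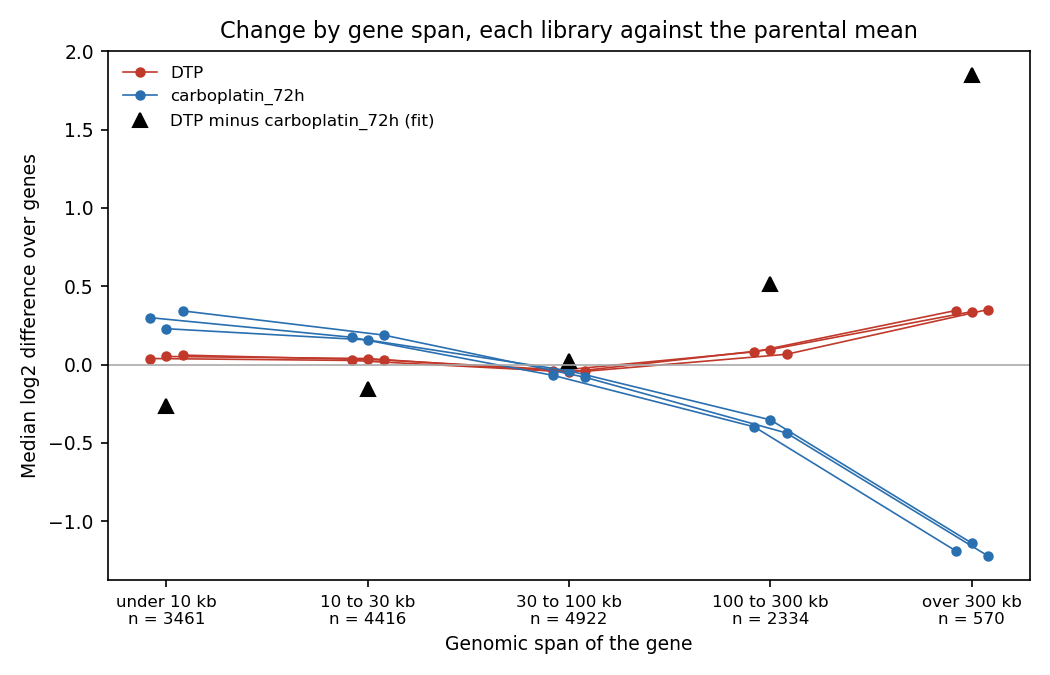
Median log2 difference over genes (vertical axis) in 5 bins of genomic span (horizontal axis, with the number of genes). Circles are single libraries against the parental mean, from log2(CPM + 0.1), and triangles are the median over genes of the fitted DTP minus carboplatin difference; the longest genes reach 1.85.

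Transcripts assigned to repeats took a smaller share in DTP. Leaving out ribosomal RNA repeats, they made up 1.29, 1.27 and 1.27 reads per 100 gene reads in DTP a, b and c and 1.85, 1.85 and 1.79 in carboplatin a, b and c, while the parental mean was 1.20 ± 0.02 (SD, n = 3). The groups did not overlap (exact 2-sided permutation test, p = 0.10, the smallest possible; adjusted over 9 comparisons of classes, 0.11). LTR elements, the remains of retroviruses, differed most, at 0.332, 0.333 and 0.324 against 0.550, 0.552 and 0.534 reads per 100 gene reads. LINE elements were at 0.532, 0.525 and 0.525 against 0.676, 0.702 and 0.650, and SINE elements at 0.296, 0.282 and 0.286 against 0.449, 0.417 and 0.431. Ribosomal RNA repeats overlapped between the groups and ranged from 0.608 to 3.56 over the 6 libraries.

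**Figure D4:**
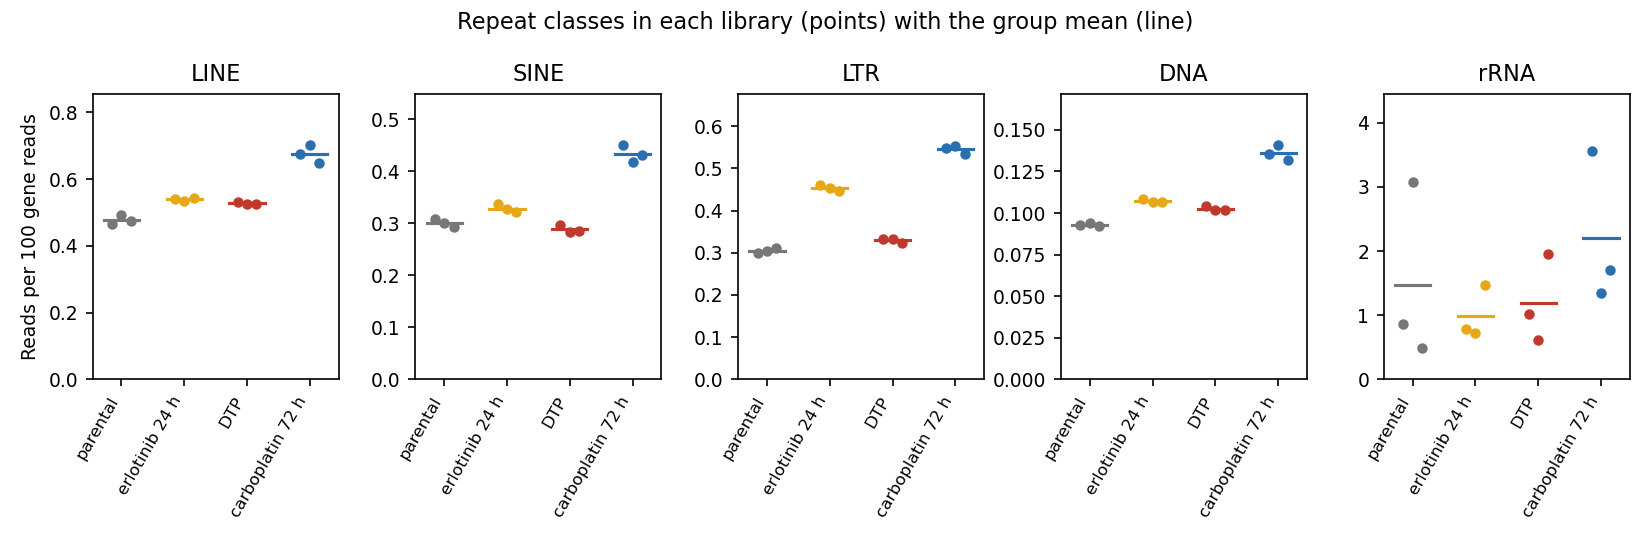
Reads assigned to 5 classes of repeats per 100 gene reads (vertical axes start at 0) in the 12 libraries of 4 groups. Points are libraries and lines are group means; the carboplatin libraries lie above all DTP libraries for LINE, SINE, LTR and DNA repeats, and not for rRNA.

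By subfamily, 729 of 1087 (67.1%) were lower in DTP and 69 (6.35%) higher, and the median was -0.53. Against the parental cells the median was 0.02 in DTP and 0.53 in carboplatin. By family, 35 of 57 (61.4%) were lower and 1 (1.75%) higher. The retroviral families ERV1 (-0.89 ± 0.03), ERVK (-0.66 ± 0.03), ERVL (-0.53 ± 0.03) and ERVL-MaLR (-0.41 ± 0.02) were lower. L2 (-0.59 ± 0.03), MIR (-0.57 ± 0.03), Alu (-0.57 ± 0.04), SVA (-0.57 ± 0.06) and L1 (-0.28 ± 0.04) were lower as well. Scaled to repeat reads without ribosomal RNA, an alternative chosen after seeing the data, 249 subfamilies (22.9%) were higher and 227 (20.8%) lower. On that scale 17 families were higher and 9 lower. ERV1 stayed lower, at -0.39, and L1 became higher, at 0.22. LINE-1 thus took a larger part of the repeat reads in DTP although its level per gene read was lower. The same held for other families, such as hAT-Charlie (0.16) and ERVL-MaLR (0.09).

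Young LINE-1 subfamilies, which hold the copies still able to move, differed little per gene read. L1HS, the youngest, was at 75.9, 76.2 and 71.9 CPM in DTP and at 65, 66.8 and 60.6 in carboplatin (0.22 ± 0.04, adjusted p = 1.3e-04). The parental mean of L1HS was 54.4 CPM, below both. L1PA2 was at 140, 140 and 136 CPM against 103, 102 and 94.5 (0.47 ± 0.04). L1PA3 was at 198, 197 and 191 CPM against 188, 191 and 178 (0.07 ± 0.04, adjusted p = 0.14), so no difference was called. L1PA4 was slightly lower (-0.11 ± 0.04), with overlapping libraries, and was no longer called with any of 3 libraries left out. Under spike-in scaling the signs of L1HS, L1PA2 and L1PA3 turned, to -0.35, -0.09 and -0.50, so the sign for these subfamilies depends on the scaling. L1PA2 was not called on that scale (edgeR, adjusted p = 0.40). Of the 9 youngest LINE-1 subfamilies 2 were higher per gene read and 5 lower (median -0.11), L1PA5 (-0.33 ± 0.04) the lowest among them. Under spike-in scaling 0 were higher and 8 lower. Scaled to repeat reads without ribosomal RNA, the alternative chosen after seeing the data, all 9 were higher in DTP, with a median of 0.39. Older L1M subfamilies were lower per gene read in 22 of 22 cases (median -0.47), and AluS in 17 of 17 (median -0.58). Both medians lay near that of all subfamilies, -0.53, of which 67.1% were lower. On the repeat scale without ribosomal RNA 7 L1M subfamilies were higher and 3 lower (median 0.03), and of AluS 2 were higher and 5 lower (median -0.07). Over all subfamilies 22.9% were higher and 20.8% lower on that scale.

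**Figure D5:**
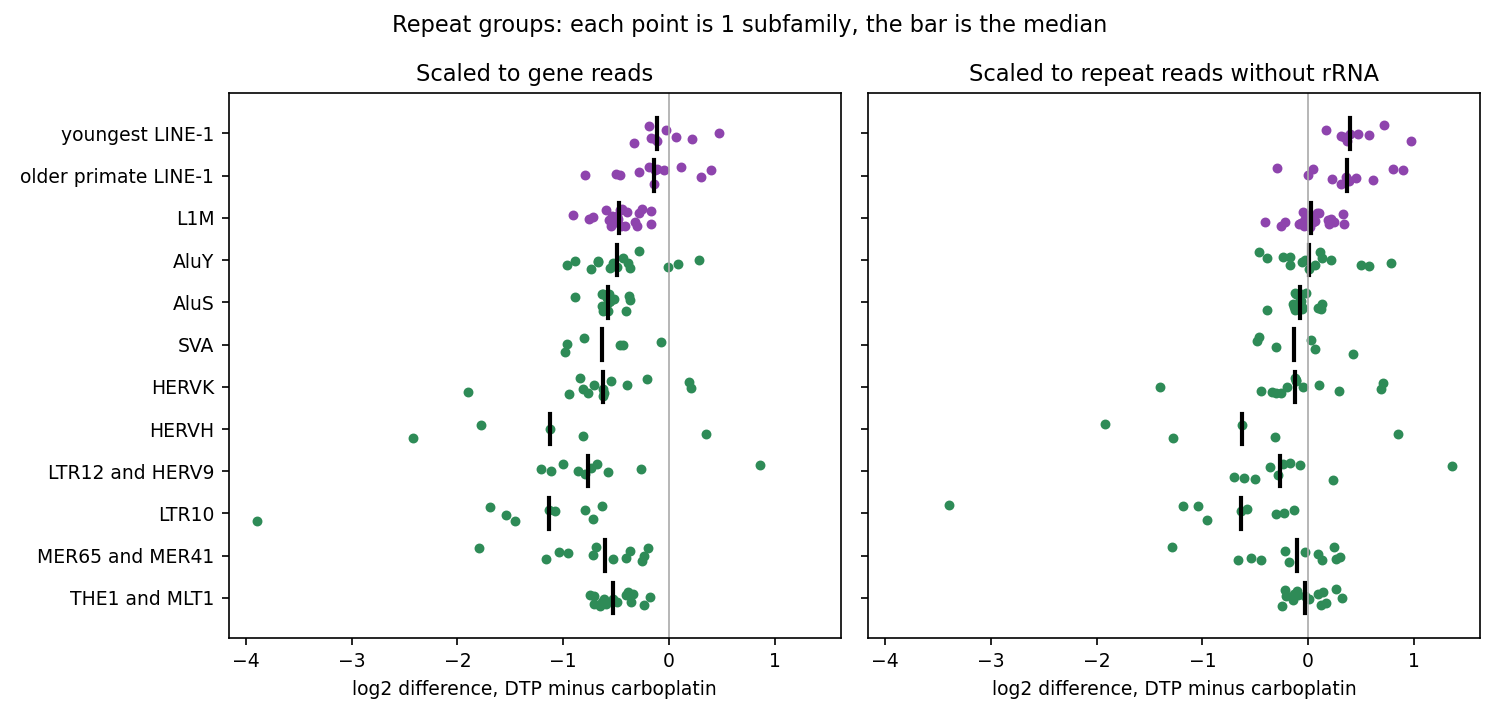
Log2 difference between DTP and carboplatin (horizontal axes) for the subfamilies of 12 repeat groups, scaled to gene reads (left) and to repeat reads without rRNA (right). Points are subfamilies, purple for LINE-1 and green for other repeats, and bars are medians; the youngest LINE-1 group moves from -0.11 to 0.39.

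Among single subfamilies the widest differences were in LTRs. HERVK13-int was at 4.78, 4.26 and 4.46 CPM in DTP and at 39.3, 37.4 and 37.2 in carboplatin (-3.08 ± 0.06), with the parental libraries at 7.31 to 7.63. HERVIP10F-int was at 17.2, 17.2 and 17.6 CPM against 87.1, 87.6 and 84 (-2.32 ± 0.03), and LTR7C at 4.9, 4.27 and 4.33 against 25.3, 22.2 and 24.6. These internal and LTR sequences were therefore above the parental level in carboplatin and below it in DTP. LTR10B (-3.90 ± 0.28), LTR43B (-2.68 ± 0.21) and MER52-int (-2.06 ± 0.26) were the other named subfamilies lower in DTP, all under 2 CPM in both groups. Of the LTR10 group, which holds p53 binding sites in primates, 8 of 9 were lower, with a median of -1.14. Over all subfamilies 67.1% were lower, with a median of -0.53. The part of p53 was not tested. The higher ones were LTR1C1 (3.29 ± 0.26), LTR108a_Mam (3.18 ± 0.31), the simple repeat (GCCCCA)n (2.63 ± 0.22), ORSL-2a (2.02 ± 0.07), MER57F (1.74 ± 0.15) and LTR2752 (1.70 ± 0.09). ORSL-2a, a DNA transposon, was at 10.4, 9.67 and 9.78 CPM against 2.42, 2.42 and 2.49, and the parental libraries were near DTP, at 8.08 to 8.56.

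Genes of H3K9 methylation and LINE-1 silencing changed little: 12 of 24 were higher, 8 lower, and 1 reached 2-fold. Over all genes 39.7% were called each way. SETDB1, the methyltransferase recruited to retroelements, was at 32.7, 32.5 and 31.5 CPM in DTP and at 24.4, 25.2 and 24.2 in carboplatin (0.39 ± 0.04), with the parental mean at 32.7; under spike-in scaling the value was -0.17. EHMT1, which encodes the methyltransferase GLP, was higher by 0.96 ± 0.05 and KDM4C, a demethylase, by 1.46 ± 0.07; they span 251 kb and 455 kb. SUV39H2 (-0.94 ± 0.05) and CBX5, which encodes the heterochromatin protein HP1 alpha (-0.59 ± 0.03), were lower. Among factors that restrict LINE-1, 9 of 18 were higher and 6 lower, against the same 39.7% each way over all genes. BST2 and SAMHD1 were among the higher ones. APOBEC3B, a cytidine deaminase, was lower, at 111, 110 and 111 CPM against 264, 275 and 260 (-1.27 ± 0.03). Of the histone genes 5 of 22 were higher and 8 lower, and poly-A selection measures the replication-dependent ones only in part.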

How the data were processed

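RNA of PC9 cells was sequenced from poly-A-selected libraries, per the labels. The deposited tables hold estimated counts per gene, per spike-in transcript and per repeat class, family and subfamily. Salmon is named in the submitters' processing notes. Its version, like the genome build and annotation, is not given in the sources used here. About 89% of the low values in each of the 12 libraries were whole multiples (within 0.02) of one step, 1.08 in DTP and 1.10 in carboplatin, so the authors' expected counts appear to be scaled per library. Each table had 3 further columns that were not used. Estimated counts were rounded. Genes passing edgeR's default filter on low counts (17076 of 30727) were tested with the quasi-likelihood test of edgeR 4.0.16 (R 4.3.3), with a term per group over the 12 libraries of 4 groups, TMM factors and Benjamini-Hochberg adjustment; the biological coefficient of variation was 0.0516 on 8 residual degrees of freedom. Repeats used the gene library sizes. The 2 groups with trichostatin A were left out, because 1 of their libraries stands far apart in its spike-in share; a fit with all 18 libraries is an alternative. Standard errors are the log2 difference over the square root of F.

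Gene identifiers were matched to symbols in RefSeq for 27814 of 30727; the others took 0.247% of gene reads. The fit was tested on simulated data with known changes. The 36 gene lists (711 genes, 673 tested) and 14 repeat lists, the comparison and the named genes' rule were chosen with earlier results of these data known, and the counts over lists are descriptions. Named were the 12 genes per direction with the largest change among those of at least 10 CPM, called and without overlap between groups (unnamed loci, antisense genes and pseudogenes skipped), up to 4 called members per list by smallest p, and EGFR, CDKN1A, MDM2, MKI67, SETDB1, ALDH1A1 and ERCC1. Subfamilies were the 6 per direction of at least 1 CPM, and L1HS and L1PA2 to L1PA4. DESeq2 1.42.0, its size factors, other filters, spike-in or repeat library sizes, a replicate block and leaving out each of 12 libraries were tried. A few genes meeting the naming rule were left out of the text.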

Additional observations from a re-analysis of the deposited data

How the results depend on the processing

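The largest dependence was on the scaling. With the spike-in as library size 3134 genes were higher and 10517 lower, 25 subfamilies were higher, the span bins had medians of -0.82, -0.72, -0.54, -0.049 and 1.29 from shortest to longest, and ERCC6 (-0.017), COL1A1 (-0.33), SETDB1 (-0.17), L1HS (-0.35), L1PA2 (-0.093) and L1PA3 (-0.50) turned. Turned here means a change of sign, and L1PA2 was not called under spike-in scaling (edgeR, adjusted p = 0.40). Of the 180 named genes 173 kept direction and call there. Scaled to all repeat reads, 38 subfamilies were higher and 13 lower, and 0 families were lower. The signs of L1PA4 (0.58), L1 (0.40), Alu (0.12), ERVK (0.031), ERVL (0.16), ERVL-MaLR (0.28), L2 (0.10), MIR (0.12) and SVA (0.13) turned. None of these was called on that scale. Without rRNA in that scaling, 249 subfamilies were higher and 227 lower, 17 families were higher and 9 lower, and L1PA4 (0.39), L1 (0.22) and ERVL-MaLR (0.092) turned. With all 18 libraries 31 subfamilies were higher and 459 lower; the cause was not tested. DESeq2, its size factors and no filter kept all 180 named genes. Leaving out each library gave 6586 to 6879 genes higher and 6483 to 6894 lower. With the replicate letter as a block 6774 genes were higher and 6732 lower. The mean spike-in difference, 0.54, is the same with or without the block by arithmetic. Its p was 0.25 with the block (exact sign-flip test, the smallest that 3 pairs can give) and 0.10 without it (exact permutation test). Same-lettered libraries did not deviate together (correlations -0.06, -0.05 and -0.03). With 3 libraries per group these values cannot tell whether the letters pair the samples. Genes with few reads in one group are measured least precisely.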
